A study of Mus musculus with 3 samples.

Results

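A set of 10 genes of matricellular and secreted matrix glycoproteins was followed through C2C12 myotubes, muscle fibres grown in culture from a mouse myoblast line. They are Spp1, Sparc, Thbs1, Thbs2, Tnc, Fn1, Postn, Tgfbi, Dcn and Prg4, picked by symbol from a table of 24401 loci with earlier results of the same libraries known. Each symbol matched 1 locus, so all 10 were measured, and every comparison of them is a description. Differentiation took 72 hours in DMEM that held 2% horse serum and insulin at 1 µg/ml, and 1 of 3 media followed for 24 hours. The first culture received medium conditioned for 24 hours by S2-013 cells, a human pancreatic cancer line, with 50 µM resveratrol, a plant polyphenol. The second received S2-013 conditioned media alone, and the third received DMEM as control, whose serum content the labels leave out. The question is which transcripts of the muscle cell's own matrix differ when tumour-conditioned medium, and resveratrol within it, are added.

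Each group held 1 library, so the differences below are between single libraries, without a replicate check, an SD or a p-value. Resveratrol without conditioned media was not analysed here, so its values always stand on those media. The labels call the cells myoblasts, and all 9 matched myotube markers stood above 6 FPKM in each library (fragments scaled to transcript length and to the mapped fragments of the library). Of 8 myoblast and reserve cell markers, all reached 1 FPKM in control and 7 in each conditioned media library. The 8 summed to 837 FPKM with resveratrol, 652 FPKM in conditioned media and 632 FPKM in control. Of that sum Des held 602, 433 and 397 FPKM in the same order. Among the 7 with a mean of 1 FPKM or more, 3 stood higher with resveratrol than in conditioned media and 4 lower. Myf5, 1 of the lower ones, had 2.69 FPKM with resveratrol, 9.23 FPKM in conditioned media and 10.9 FPKM in control. Pax7, whose mean was below 1 FPKM, had 0.271, 0.699 and 1.04 FPKM in the same order. The cultures thus held transcripts of both marker sets. Ptprc and Adgre1, which define leukocytes and macrophages, were listed at 0 in all 3 libraries. The 8 macrophage markers summed to 6.68 FPKM with resveratrol, 9.02 FPKM in conditioned media and 7.02 FPKM in control. Most of that sum was Cd14, at 4.14 FPKM with resveratrol, 6.53 FPKM in conditioned media and 5.52 FPKM in control. Cd68 had 1.82, 1.49 and 1.02 FPKM in the same order, and the other macrophage markers stayed below 1 FPKM. The 6 endothelial markers summed to less than 1 FPKM in each library. The 9 matched fibroblast markers, whose sum is mostly collagen transcripts that muscle cell cultures also hold, came to 2939.7 FPKM with resveratrol, 4337 FPKM in conditioned media and 3362 FPKM in control. In bulk RNA, fewer cells of a type and less RNA per cell cannot be told apart.

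Matricellular proteins are secreted into the extracellular matrix but act mainly as signals and adapters there, binding integrins, growth factors and collagen rather than bearing load. Skeletal muscle uses them during development and repair, when osteopontin, tenascin-C, periostin and the thrombospondins are induced, while fibronectin and decorin belong to the lasting framework of the matrix. Myoblasts and myotubes secrete several of them themselves.

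A few of the genes made up most of the transcripts of the group. Sparc, Spp1 and Fn1 together held 6465 FPKM with resveratrol, 5571 FPKM in conditioned media and 5127 FPKM in control. That was 89.5% of the summed FPKM of the 10 genes with resveratrol, 83.1% in conditioned media and 79.9% in control. FPKM is a level per transcript length, so levels can be set side by side between genes. The other 7 genes summed to 757 FPKM with resveratrol, 1137 FPKM in conditioned media and 1290.4 FPKM in control. Sparc was the highest of the 10 in conditioned media and in control, whereas Spp1 was the highest with resveratrol, and Tgfbi was the lowest in all 3 libraries. Without replicates, no neighbours in this order could be shown to differ beyond their spread.

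**Figure D1:**
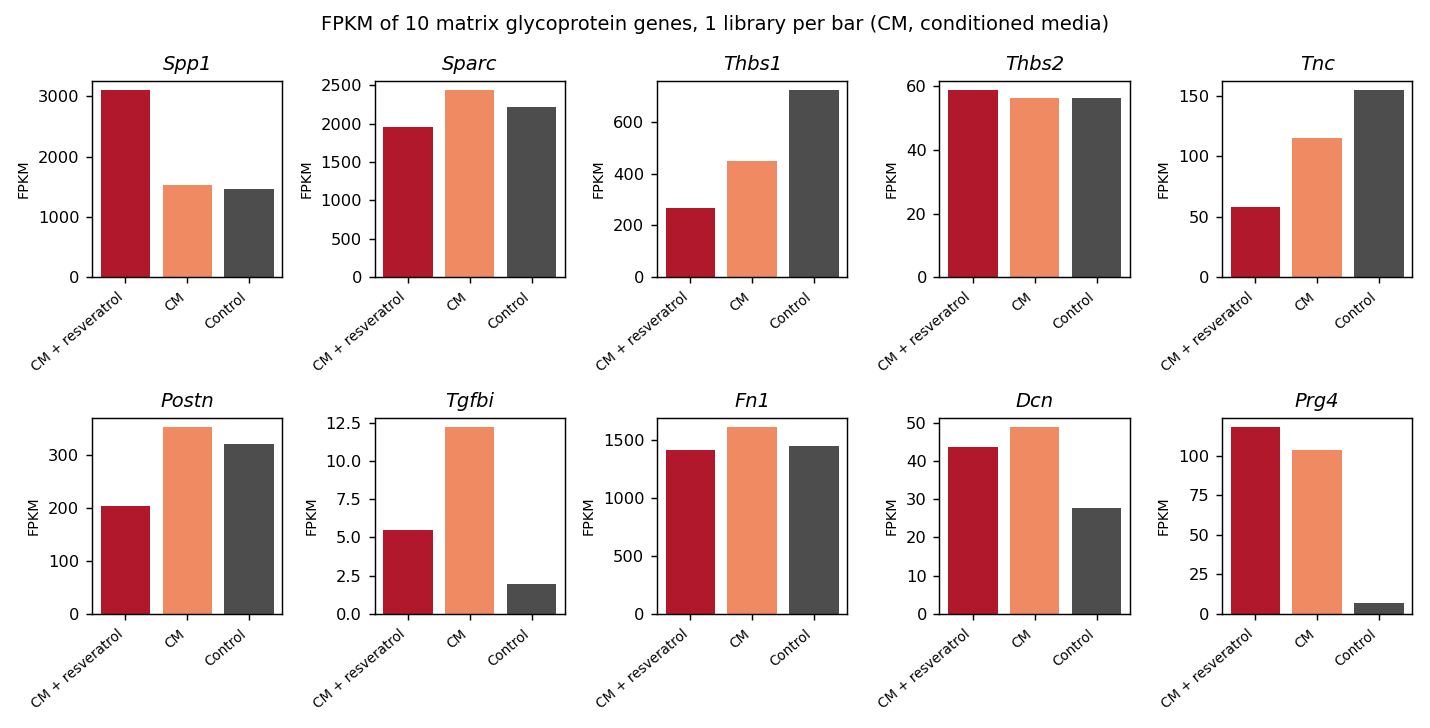
Bars give the FPKM of each gene in the library with conditioned media and resveratrol, the conditioned media library and the control library, 1 library per bar and each axis starting at 0. Prg4 and Tgfbi stood higher in both conditioned media libraries than in control, Thbs1 and Tnc stood lowest with resveratrol and highest in control, and Spp1 reached 3097 FPKM with resveratrol.

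A gene was counted as higher or lower by a size rule, an absolute log2 ratio of (FPKM + 1) of 1 or more with a mean of 1 FPKM or more over the libraries. In conditioned media over control, 2 of the 10 genes were higher by this rule (Prg4 and Tgfbi), where 1.98% of 11858 loci were, and 0 were lower, where 0.751% of loci were. For resveratrol over conditioned media alone, 1 was higher (Spp1), against 1.53% of loci, and 1 was lower (Tgfbi), against 4.97% of loci. With resveratrol over control, 3 were higher (Prg4, Tgfbi and Spp1), against 3.6% of loci, and 2 were lower (Thbs1 and Tnc), against 5.25% of loci. The 3 higher became 2 with a pseudocount of 5 FPKM and after rescaling to TPM over all loci, where Tgfbi dropped out. They also became 2 after rescaling to TPM over loci longer than 200 bases, where Spp1 did. A value of 1 was added to TPM too. TPM over all loci are smaller than FPKM, so the added 1 weighs more on low genes there. The median log2 ratios of the 10 genes were 0.14, -0.25 and 0.01 in these 3 comparisons, and those of all 11858 loci were -0.01, 0.03 and 0.00. The genes were listed with these ratios known, so their counts say nothing about the group beyond the values themselves. The comparisons also share libraries, each library standing in 2 of them.

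The authors' deposited table, whose calls come from Cuffdiff and compare single libraries, calls far more. In conditioned media over control, the authors' deposited table calls 6 of the 10 genes higher and 2 lower, where it calls 25.8% and 29.9% of 10982 tested loci (55.7% in all). For resveratrol over conditioned media, the authors' deposited table calls 3 higher and 7 lower, where it calls 34.1% and 29.5% of 11033 tested loci (63.6% in all). For resveratrol over control, the authors' deposited table calls 5 higher and 4 lower, where it calls 34.1% of 10939 tested loci in each direction (68.2% in all). The values themselves are given below.

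**Figure D2:**
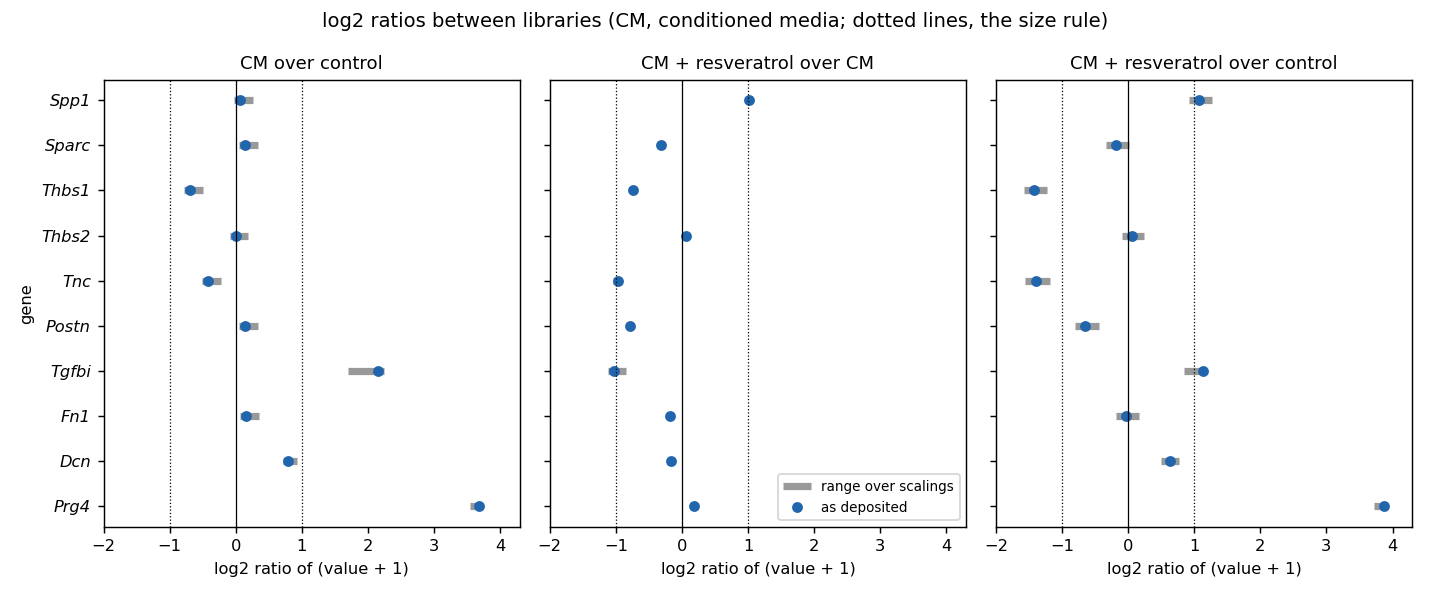
Points give the log2 ratio of (FPKM + 1) of each gene in the 3 comparisons, and grey bars its range over the deposited scale, 2 rescalings to TPM and centring on the median of all loci. Prg4 stayed between 3.54 and 3.87 over control in these scalings, whereas Spp1, Tnc and Tgfbi lie close to the dotted lines of the size rule in the middle panel.

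Spp1 encodes osteopontin, a phosphorylated glycoprotein that binds integrins and CD44 and is secreted by bone, immune and regenerating muscle cells. Its locus lies at chr5:104435111-104441053 of mm10, on the plus strand, with 6 exons in its longest coding transcript. Spp1 had 3097 FPKM in conditioned media with resveratrol, 1528 FPKM in conditioned media alone and 1468 FPKM in control. The resveratrol library stood apart, and the conditioned media and control libraries were close to each other. The log2 ratio was 1.02 for resveratrol over conditioned media (2.03-fold), 1.08 for resveratrol over control (2.11-fold) and 0.06 for conditioned media over control, the last turning to -0.03 when FPKM were rescaled to TPM over loci longer than 200 bases. That rescaling and centring place the ratio over conditioned media just under the size rule, at 0.96 and 0.99. The rescaling also puts the ratio over control under it, at 0.93. Within the table of 1-symbol loci longer than 200 bases, Spp1 ranked 8 by FPKM with resveratrol, 26 in conditioned media and 25 in control.

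Sparc encodes osteonectin, a collagen-binding glycoprotein, and lies at chr11:55394159-55420121 on the minus strand. Sparc had 1953 FPKM with resveratrol, 2432 FPKM in conditioned media and 2210.3 FPKM in control, a span of 1.25-fold between the highest and the lowest library. The log2 ratio was -0.32 for resveratrol over conditioned media and 0.14 for conditioned media over control. For resveratrol over control it was -0.18, which became 0.02 after rescaling to TPM over all loci. The ratio of Spp1 to Sparc inside a library, which no scaling between libraries can alter, was 1.59 with resveratrol, 0.628 in conditioned media and 0.664 in control. That ratio holds the difference in Sparc as well as that in Spp1, as Sparc with resveratrol stood at 80.3% of its conditioned media level.

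The thrombospondins Thbs1 and Thbs2 are related trimeric glycoproteins, both with 22 exons in their longest coding transcript, and both bind CD36. Thrombospondin-1 also binds CD47 and is known as an activator of latent TGF-β. Thbs1, at chr2:118111749-118127133 on the plus strand, had 268 FPKM with resveratrol, 448 FPKM in conditioned media and 721 FPKM in control. It was lowest with resveratrol, intermediate in conditioned media and highest in control, with log2 ratios of -0.69 for conditioned media over control, -0.74 for resveratrol over conditioned media and -1.42 for resveratrol over control. Only the last passed the size rule, at 37.2% of the control FPKM. Thbs2, at chr17:14665500-14694262 on the minus strand, had 58.7 FPKM with resveratrol, 56.4 FPKM in conditioned media and 56.2 FPKM in control. These 3 values lay within 1.04-fold of each other, and the signs of all 3 log2 ratios turned in the rescaling to TPM over loci longer than 200 bases. The ratio of Thbs1 to Thbs2 within a library was 4.57 with resveratrol, 7.93 in conditioned media and 12.8 in control, so the 2 paralogs differed unequally between the libraries under any scaling. Of their receptors, Cd36 had 6.50 FPKM with resveratrol, 5.89 FPKM in conditioned media and 9.55 FPKM in control. Cd47 had 109.9 FPKM with resveratrol, 119 FPKM in conditioned media and 93.9 FPKM in control.

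Tnc encodes tenascin-C, a large hexameric glycoprotein of developing and injured tissue that binds fibronectin and integrins. It lies at chr4:63959733-64047193 on the minus strand, and its longest coding transcript has 26 exons. Tnc had 58.1 FPKM with resveratrol, 115 FPKM in conditioned media and 155 FPKM in control, the same order of libraries as Thbs1. The log2 ratio was -0.42 for conditioned media over control, -0.97 for resveratrol over conditioned media and -1.40 for resveratrol over control. The middle ratio lies just short of the size rule and passes it, at -1.04, after rescaling to TPM over loci longer than 200 bases. Set against Thbs2 in the same library, Tnc had a ratio of 0.989 with resveratrol, 2.04 in conditioned media and 2.75 in control. The strand setting of the counting is unknown. Reads of Tnc therefore cannot be told apart from those of 8030451A03Rik, a transcript on the opposite strand that overlaps it over 67162 bases, and the same holds for Thbs1 and Gm29233 over 597 bases and Fn1 and Apol7d over 364 bases. Spp1 shares 1252 bases with Gm42793, a transcript on the same strand, and reads there cannot be assigned to either.

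Postn and Tgfbi encode periostin and the TGF-β-induced protein, a pair of related secreted proteins built from fasciclin domains that bind integrins and collagen. Postn, at chr3:54361036-54391041 on the plus strand, had 205 FPKM with resveratrol, 354 FPKM in conditioned media and 322 FPKM in control. The resveratrol library was the low one, with a log2 ratio of -0.78 over conditioned media and -0.65 over control, while conditioned media over control gave 0.14. None of these passed the size rule, and the signs held in every scaling tried. Tgfbi, at chr13:56609571-56639350 on the plus strand, had 5.50 FPKM with resveratrol, 12.2 FPKM in conditioned media and 1.98 FPKM in control. It was thus 6.17-fold higher in conditioned media than in control, and 45.0% of the conditioned media level with resveratrol, which still left it 2.78-fold above control. Its log2 ratios of (FPKM + 1) were 2.15, -1.02 and 1.13 for conditioned media over control, resveratrol over conditioned media and resveratrol over control. At this low level the pseudocount matters: with 5 FPKM added, the ratio with resveratrol was -0.71 over conditioned media and 0.59 over control, both inside the size rule. Periostin transcripts outnumbered those of Tgfbi 37.3 to 1 with resveratrol, 29.0 to 1 in conditioned media and 163 to 1 in control. Tgfb1, the ligand after which the protein is named, had 40.1 FPKM with resveratrol, 25.3 FPKM in conditioned media and 26.7 FPKM in control, so its order of libraries was not that of Tgfbi.

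Fn1 encodes fibronectin, the integrin-binding glycoprotein on which other matrix fibres assemble, and lies at chr1:71585473-71653258 on the minus strand with 46 exons in its longest coding transcript. Fn1 had 1414 FPKM with resveratrol, 1610.4 FPKM in conditioned media and 1449 FPKM in control. The libraries lay within 1.14-fold of each other, with log2 ratios of 0.15 for conditioned media over control and -0.19 for resveratrol over conditioned media. For resveratrol over control the ratio was -0.03, and it turned to 0.16 after rescaling to TPM over all loci. Its ratio to Sparc within a library stayed between 0.655 and 0.724. Itga5, whose product pairs with integrin β1 as the main fibronectin receptor, had 52.5 FPKM with resveratrol, 73.2 FPKM in conditioned media and 82.9 FPKM in control, and Itgb1 had 288 FPKM with resveratrol, 286 FPKM in conditioned media and 346 FPKM in control.

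Dcn encodes decorin, a small leucine-rich proteoglycan that binds collagen fibrils and TGF-β, and lies at chr10:97479500-97518162 on the plus strand. Dcn had 43.6 FPKM with resveratrol, 48.9 FPKM in conditioned media and 27.8 FPKM in control. Both conditioned media libraries stood above control, with log2 ratios of 0.63 with resveratrol and 0.79 without, neither past the size rule, and the ratio between them was -0.16. Biglycan, the closest relative of decorin, is encoded by Bgn, which had 1926 FPKM with resveratrol, 1899.6 FPKM in conditioned media and 1695 FPKM in control.

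Prg4 encodes lubricin, the mucin-like glycoprotein that lubricates joint surfaces and tendons. It had the widest span of the 10 genes. Prg4 had 118 FPKM with resveratrol, 103 FPKM in conditioned media and 7.12 FPKM in control. Both conditioned media libraries were high and close to each other, and the control library was low. The log2 ratio was 3.87 for resveratrol over control (16.6-fold), 3.68 for conditioned media over control (14.5-fold) and 0.19 for resveratrol over conditioned media. Among the loci ranked above, Prg4 stood at 630 with resveratrol, 713 in conditioned media and 7830 in control. Its level was 2.70 times that of Dcn with resveratrol, 2.12 times in conditioned media and 0.256 times in control. The deposited locus, chr1:150361311-150466230, is 104920 bases long and wider than the gene, which spans chr1:150449412-150466165 on the minus strand in GENCODE M21. It overlaps the deposited loci of Tpr and BC003331. Tpr runs on the opposite strand, shares 524 bases with Prg4, and had 42.6 FPKM with resveratrol, 39.3 FPKM in conditioned media and 38.7 FPKM in control, a log2 ratio of 0.02 for conditioned media over control. Reads of the shared bases cannot be told apart. The 8 markers of tendon and joint lining cells, where lubricin is best known, summed to 37.8 FPKM with resveratrol, 48.3 FPKM in conditioned media and 75.5 FPKM in control. Most of that sum was Scx, a transcription factor gene of tendon cells, with 23.4 FPKM with resveratrol, 32.6 FPKM in conditioned media and 63.2 FPKM in control. The deposited locus of Scx is chr15:76380296-76477269, and its overlaps with other genes were not examined. The other 7 markers, summed after the values were seen, came to 14.4 FPKM with resveratrol, 15.7 FPKM in conditioned media and 12.3 FPKM in control. In conditioned media over control, 1 of the 4 measured markers had a ratio above 0 and 3 had ratios below 0 (median -0.21). The 1 above was Cd55, a marker of joint lining cells. Cd55 had 6.71 FPKM with resveratrol, 10.5 FPKM in conditioned media and 5.89 FPKM in control. The authors' deposited table calls Cd55 higher and Scx lower in conditioned media than in control. Tspan15 had 5.97 FPKM with resveratrol, 3.15 FPKM in conditioned media and 4.46 FPKM in control. Clic5 had 0.820 FPKM with resveratrol, 1.39 FPKM in conditioned media and 1.43 FPKM in control. The part of these cells in the Prg4 values was not tested. Tnmd, a defining tendon gene, was below 0.06 FPKM in the conditioned media libraries and listed at 0 in control.

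RefSeq promoter sequence of GRCm38.p6, the build called mm10, was matched for 6 of the 10 genes, namely Spp1, Sparc, Thbs2, Tnc, Postn and Tgfbi. The bases before the annotated start nearest to the deposited locus are shown for 4 of them, Spp1 as the gene highest with resveratrol and Tnc, Postn and Tgfbi as genes with lower values with resveratrol than in conditioned media alone. For Tgfbi the sequence ends where a GENCODE untranslated exon begins. Capitals mark matches to the TATA box letters, TATAAA, searched on both strands. They also mark the letters of the GC box, GGGCGG, on both strands.
Spp1, chr5:104434861-104435110, plus strand: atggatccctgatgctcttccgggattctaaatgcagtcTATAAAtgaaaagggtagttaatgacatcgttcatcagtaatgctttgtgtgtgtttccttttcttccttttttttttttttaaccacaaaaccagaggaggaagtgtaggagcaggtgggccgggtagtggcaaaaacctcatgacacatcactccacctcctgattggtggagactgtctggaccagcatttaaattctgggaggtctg
Tnc, chr4:64047016-64047265, minus strand: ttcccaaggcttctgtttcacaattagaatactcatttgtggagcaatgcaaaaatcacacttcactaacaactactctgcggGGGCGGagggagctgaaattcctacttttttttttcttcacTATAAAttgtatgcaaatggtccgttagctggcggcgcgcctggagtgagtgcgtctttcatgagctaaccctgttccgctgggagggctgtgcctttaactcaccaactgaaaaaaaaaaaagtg
Postn, chr3:54360857-54361106, plus strand: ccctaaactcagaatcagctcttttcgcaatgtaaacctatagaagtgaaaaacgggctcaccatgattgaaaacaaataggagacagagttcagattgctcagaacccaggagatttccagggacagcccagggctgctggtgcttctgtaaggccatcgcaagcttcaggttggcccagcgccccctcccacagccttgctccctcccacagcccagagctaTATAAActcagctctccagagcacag
Tgfbi, chr13:56609336-56609522, plus strand: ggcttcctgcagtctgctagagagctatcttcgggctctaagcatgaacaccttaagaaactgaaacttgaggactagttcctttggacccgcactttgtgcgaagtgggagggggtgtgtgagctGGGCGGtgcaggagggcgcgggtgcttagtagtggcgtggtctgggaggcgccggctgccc
In Postn the TATAAA lies 26 to 21 bases before the start, whereas in Tnc it lies 126 to 121 and in Spp1 211 to 206 bases before it. That start is the RefSeq one, and the deposited locus begins 71 bases before it in Postn and 178 in Tnc. The matches of Postn and Tnc thus lie inside the deposited loci. TATAAA was found in 4 of the 6 matched windows of 250 bases, and in 12.4% of 32851 windows of that length before annotated starts. The window of Sparc, 1 of the 6, lies inside the GENCODE span of its gene. It overlaps 3 untranslated exons and has 5 bases upstream of them, so it is not clear promoter sequence. The 4 windows with TATAAA include that of Thbs2, where TTTATA, the match on the other strand, lies 126 to 121 bases before the start. Motifs were chosen after these promoters were read, so the motif counts are a description only. GGGCGG was found in the windows of Tnc and Tgfbi and in 32.7% of all windows. TGANTCA (AP-1), TTCNNNGAA (STAT) and GTGGGAA (RBPJ) were in none of the 6 windows, and in 6.75%, 7.02% and 5.42% of all windows. The TATA and GC box matches did not overlap each other, and a window without given letters says nothing of the factor.

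Likeness in pattern was measured for the 3 genes with the widest log2 range, as the distance between 2 log2 ratios (conditioned media over control and resveratrol over conditioned media) over 10620 named genes and 3 libraries. Nearest to Prg4 were Serpina3n at a distance of 0.17, Wfdc17 at 1.40 and Nos2 at 1.61. Serpina3n, a serine protease inhibitor, had 14.9 FPKM with resveratrol and 13.4 FPKM in conditioned media and was listed at 0 in control, so its ratio over control depends on the pseudocount. The same holds for Wfdc17, with 3.62 FPKM with resveratrol and 3.98 FPKM in conditioned media. Nos2 had 49.5 FPKM with resveratrol, 94.2 FPKM in conditioned media and 15.7 FPKM in control. Its log2 ratio for resveratrol over conditioned media was -0.92, where that of Prg4 was 0.19. Nearest to Tgfbi were Cd209c (0.095), Gstt1 (0.18) and Cd74 (0.25), the last with 7.73 FPKM with resveratrol, 14.1 FPKM in conditioned media and 2.67 FPKM in control. Nearest to Thbs1 were Usp18 (0.050), Duoxa1 (0.051) and Cmpk2 (0.059), of which Usp18 had 40.9 FPKM with resveratrol, 66.5 FPKM in conditioned media and 108 FPKM in control.

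Around these 10 genes, 5 lists of the same matrix system were read. Of 45 other matricellular and matrix glycoproteins, 27 reached a mean of 1 FPKM. In conditioned media over control, 0 of the 27 passed the size rule, where 1.98% of loci were higher and 0.751% lower. Ratios above 0 were found in 18, against 48.7% of loci, and the median was 0.11. The one with the largest ratio was Emilin1, an elastic fibre glycoprotein, with 21.4 FPKM in conditioned media and 11.7 FPKM in control. With resveratrol over conditioned media, 6 of 27 were lower by the size rule, against 4.97% of loci, and 0 higher, against 1.53% of loci. Ratios below 0 were found in 19, and the median was -0.25 against 0.03 over all loci. The lower ones included Emilin1 at 7.22 FPKM with resveratrol, against 21.4 FPKM in conditioned media. Srpx2 had 8.97 FPKM with resveratrol and 23.9 FPKM in conditioned media, and Fbln5, fibulin-5 of elastic fibres, had 9.21 FPKM with resveratrol and 24.0 FPKM in conditioned media. Over control, 5 were lower with resveratrol (3 after rescaling to TPM over all loci), against 5.25% of loci, and 0 higher, against 3.6% of loci. Among the lower ones, Srpx2 had 34.5 FPKM and Fbln5 29.5 FPKM in control. They also held Smoc2, a member of the Sparc family, at 5.71 FPKM with resveratrol and 20.4 FPKM in control (log2 ratio -1.67). Sparc, Smoc2 and Spock2, all of the Sparc family, stood at log2 ratios of -0.32, -1.28 and -0.985 for resveratrol over conditioned media.

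Among 11 measured matrix proteoglycans, 8 had ratios below 0 with resveratrol over conditioned media (median -0.34), where 52.5% of all loci had ratios above 0. By the size rule 1 was lower, against 4.97% of loci. It was Vcan, which encodes versican, at 69.1 FPKM with resveratrol and 148 FPKM in conditioned media. Aspn, asporin, a relative of decorin, had 23.5 FPKM with resveratrol and 57.4 FPKM in control (log2 ratio -1.25), while its locus shares its span with other genes. Srgn was the 1 proteoglycan higher with resveratrol than in control by the size rule, against 3.6% of loci. It had 2.26 FPKM with resveratrol and 0.393 FPKM in control. That difference is not called in the authors' deposited table and falls inside the size rule with TPM over all loci.

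Of 26 listed receptors of these proteins, 25 were matched and 21 were measured. In conditioned media over control, 1 of the 21 passed the size rule, where 1.98% of loci were higher and 0.751% lower. It was Vldlr, a lipoprotein receptor that also binds thrombospondin-1, at 13.9 FPKM in conditioned media and 5.84 FPKM in control. With resveratrol it stood at 3.45 FPKM, a log2 ratio of -1.74 over conditioned media. Also lower with resveratrol than in conditioned media were Tlr2, a pattern recognition receptor, at 8.45 FPKM with resveratrol and 21.3 FPKM in conditioned media, and Itgb8, an integrin β chain, at 0.874 FPKM with resveratrol and 3.39 FPKM in conditioned media. In all, 4 of the 21 were lower by the size rule in that comparison, against 4.97% of loci, and 0 higher, against 1.53% of loci. With TPM over all loci, where the added 1 weighs more on low genes, 2 were lower. Over control, 1 of the 21 was lower with resveratrol, against 5.25% of loci, and 1 higher, against 3.6% of loci. The lower one was the growth factor receptor gene Met (4.61 FPKM, against 11.4 FPKM in control). The higher one was Sdc4, syndecan-4, a co-receptor for fibronectin (174 FPKM, against 80.6 FPKM in control). That 1 lower receptor became 0 with TPM over all loci and 4 with TPM over longer loci, where the 1 higher became 0. The receptor median was -0.16 for resveratrol over conditioned media. Cd44, a receptor of osteopontin, had 64.7 FPKM with resveratrol, 72.5 FPKM in conditioned media and 67.1 FPKM in control, and so did not share the pattern of Spp1.

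All 19 TGF-β pathway genes were measured. In conditioned media over control 0 passed the size rule, where 1.98% of loci were higher and 0.751% lower. The median was -0.06 and turned to 0.12 after rescaling to TPM over all loci. The largest ratio was that of Tgfbr2, a receptor gene, at 40.8 FPKM in conditioned media and 55.0 FPKM in control. Against conditioned media alone, 1 of the 19 was higher by the size rule, against 1.53% of loci, and 2 were lower, against 4.97% of loci. Tgfbr1, which encodes the type I receptor, was higher at 19.2 FPKM with resveratrol and 8.10 FPKM in conditioned media. Lower were the ligand gene Tgfb2 at 4.35 FPKM with resveratrol and 11.2 FPKM in conditioned media, and Lrrc32, a carrier of latent TGF-β, at 0.616 FPKM with resveratrol and 2.86 FPKM in conditioned media. Over control, 3 of the 19 were higher with resveratrol, against 3.6% of loci, and 2 were lower, against 5.25% of loci. Tgfbr3, betaglycan, was higher at 10.7 FPKM with resveratrol, against 3.96 FPKM in control, while Tgfb2 and Lrrc32 were lower, with 12.0 and 3.64 FPKM in control. With TPM over all loci, where the added 1 weighs more on low genes such as Lrrc32, 0 of the 19 were lower in either resveratrol comparison. There, 1 was higher over conditioned media and 3 over control. With TPM over longer loci, 2 were higher and 4 lower over control.

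Of 39 genes of matrix processing, crosslinking and glycosylation, 30 were measured. In conditioned media over control, 1 of the 30 passed the size rule, where 1.98% of loci were higher and 0.751% lower. It was Tgm2, transglutaminase 2, which crosslinks fibronectin, at 31.3 FPKM in conditioned media and 11.8 FPKM in control. Tgm2 had 17.2 FPKM with resveratrol. In the library with resveratrol against conditioned media alone, 24 of 30 had ratios below 0, where 52.5% of all 11858 loci had ratios above 0. By the size rule 5 were lower, against 4.97% of loci, and 0 higher, against 1.53% of loci. The median was -0.35. Plau, urokinase, had 5.58 FPKM with resveratrol, 25.3 FPKM in conditioned media and 34.1 FPKM in control. Loxl4, a lysyl oxidase relative, had 2.46 FPKM with resveratrol and 9.70 FPKM in conditioned media, and the protease gene Adamts1 had 6.08 FPKM with resveratrol and 18.0 FPKM in conditioned media. Over control, 6 were lower with resveratrol, against 5.25% of loci, and 1 higher, against 3.6% of loci. These counts became 4 and 2 with TPM over all loci and 7 and 0 with TPM over longer loci. Loxl1, which crosslinks elastin, was among the lower ones at 25.1 FPKM with resveratrol and 72.5 FPKM in control. The medians of the 5 lists for resveratrol over conditioned media were below 0 in each of the 2 rescalings to TPM and after centring as well. All 7 measured fibroblast markers also had ratios below 0 in that comparison (median -0.44), with Col1a1, collagen I, at 527 FPKM with resveratrol and 1056 FPKM in conditioned media. Myotube markers stood on the other side, 7 of 9 with ratios above 0 (median 0.47). The part of these markers in the matrix gene values was not tested.

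**Figure D3:**
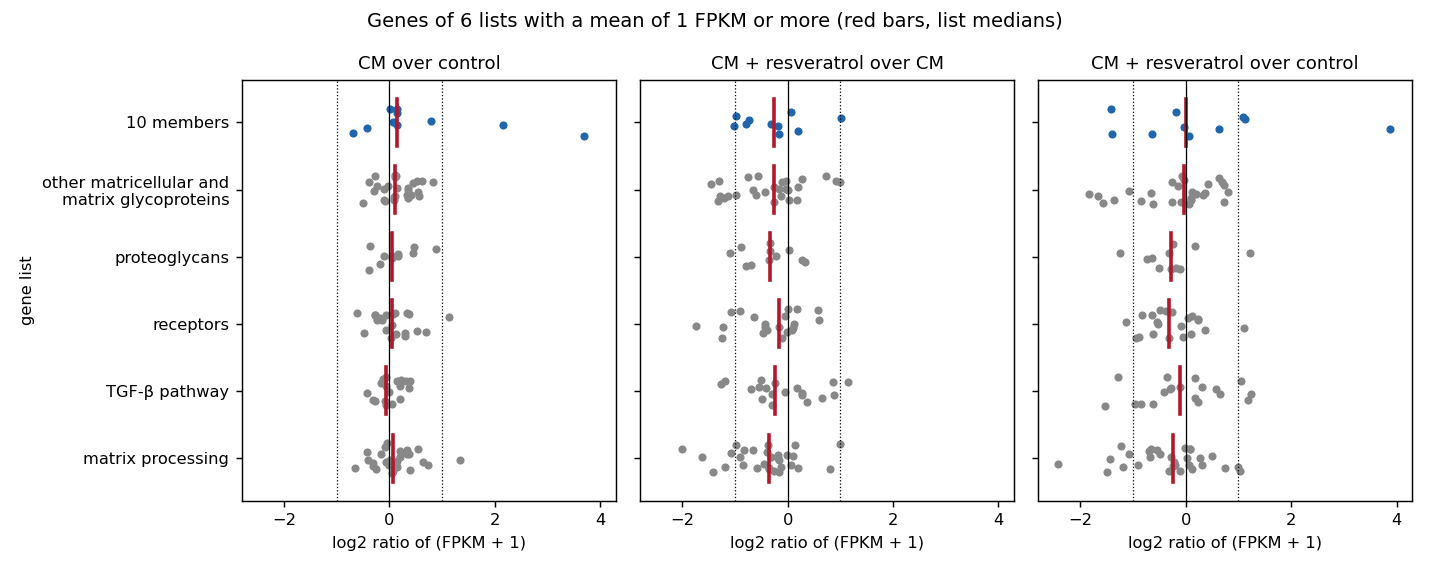
Each point is a gene with a mean of 1 FPKM or more, placed by its log2 ratio of (FPKM + 1) in the 3 comparisons, and red bars are list medians. With resveratrol over conditioned media the medians of the 10 genes and of the 5 lists around them lie between -0.35 and -0.16, while Prg4 at 3.68 and Tgfbi at 2.15 stand far from the rest in conditioned media over control.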

How the data were processed

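RNA of 3 C2C12 cultures, 1 library per group, was taken from TRIzol lysates and made into libraries with an Illumina TruSeq kit, per the labels' protocols. Per the submitters' processing notes, the tools were Cuffdiff 2.2.1.3, Cufflinks 2.2.1.0, TopHat2 2.1.0, Bowtie, Trim Galore 0.4.3.1 and FastQC 0.69, listed there without order, and the build was mm10. Annotation, strand option and the scaling of libraries were not given in those notes or in the labels.

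The authors' deposited table gives FPKM per locus, computed by the authors, with equal values wherever a library recurs. Its log2 fold changes are deposited without any pseudocount, from those FPKM. The test statistic, a score, and the p-values and q-values are also the authors' values as deposited, and only the calls were used here. Read totals are not given, so depth is unknown. Among 4286 low loci outside the authors' tests, at most 9 shared 1 ratio between conditioned media and control, so steps of whole reads could not be found.

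Libraries were matched to groups by their description labels. Log2 ratios of (FPKM + 1), medians and counts by the size rule were computed with Python 3.11.15, pandas 2.3.3 and numpy 2.4.6, and figures with matplotlib 3.10.9. The sums of FPKM were 2956880 with resveratrol, 2953950 in conditioned media and 3384770 in control, of which 78.4%, 79.3% and 83.0% lay in loci of 200 bases or less. Of 22351 loci compared, 10489 had the RefSeq start of their gene 1 base after the deposited start and 617 at it, so starts were read as counted from 0 and converted to positions counted from 1. Gene spans, exons and overlaps come from GENCODE M21. Motifs were chosen after the promoters were read.

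Members and lists were chosen with earlier results of these data known. The text names all 10 members and, per list and comparison, up to 3 genes past the size rule with the largest ratios, or else the 1 with the largest ratio; receptors, ligands and relatives of members, and markers, were named besides, chosen after their values were seen. With 1 library per group there is no test. The alternatives were other pseudocounts (0.1 and 5 FPKM), other filters (none, and a mean of 5 FPKM or more), TPM over all loci or over loci longer than 200 bases, centring on the median, and summing loci of a symbol. In both TPM alternatives 1 was added after the rescaling, so they change the weight of the pseudocount along with the scale between libraries. Both conditioned media libraries had close sums of FPKM, so with TPM over all loci their ratios moved mainly through the added 1.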

Additional observations from a re-analysis of the deposited data

How the results depend on the processing

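Of the 10 genes' log2 ratios in 3 comparisons under 8 alternatives, 226 kept their side of the size rule and direction, 7 fell back inside it, 1 came to pass it, and 6, all of ratios inside it, turned sign. The other filters and the summing of loci could not change these ratios, as each symbol had 1 locus and the lowest mean was 6.56 FPKM. Each of those settings put 30 ratios, fixed in advance, among the 226. Only the pseudocounts, the TPM rescalings and centring could move a ratio. Prg4, Thbs1 and Tnc over control and Tgfbi in conditioned media over control kept their side under all of these. With resveratrol over conditioned media, the count of members lower moved from 1 to 0 with a pseudocount of 5 FPKM and with TPM over all loci, and to 2 with TPM over loci longer than 200 bases, as Tgfbi and Tnc lie close to the rule. The count higher moved from 1 to 0 with that last rescaling and with centring, where Spp1 lies just under the rule. The members' median for conditioned media over control was 0.14 as deposited, 0.33 with TPM over all loci, 0.048 with TPM over longer loci and 0.15 when centred. For resveratrol over conditioned media it was -0.25, and -0.31 with TPM over longer loci and -0.28 when centred. For resveratrol over control it was 0.01, then 0.20 with TPM over all loci, and it reversed to -0.14 with TPM over longer loci. These rescalings moved the median of all loci over control to 0.14 (TPM over all loci, both comparisons) and to -0.10 and -0.14 (longer loci). Counts over all loci ranged from 56 to 450 higher and 30 to 152 lower for conditioned media over control (235 and 89 as deposited), from 65 to 299 and 178 to 884 for resveratrol over conditioned media (182 and 589), and from 161 to 631 and 219 to 964 for resveratrol over control (427 and 622). The share of higher among them was 72.5% as deposited, 83.0% with TPM over all loci and 62.8% with longer loci for conditioned media over control, and 40.7%, 61.8% and 27.8% for resveratrol over control. No paired analysis was possible because each group has 1 library. Depth is unknown, so the counting error of these values could not be given.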
